A study of Rattus norvegicus with 320 samples.

Results

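The miR-7 family of the rat was followed through 11 organs and 4 ages in small RNA libraries of Fisher 344 (F344) rats. Its members are the rows of the count table named miR-7a or miR-7b with any arm or copy suffix, and 4 of the 616 miRNA rows met this rule: rno-miR-7a-5p, rno-miR-7b, rno-miR-7a-1-3p and rno-miR-7a-2-3p, written below without the species prefix. The samples came from pair-housed female and male rats of 2, 6, 21 and 104 weeks of age, with 4 rats for each sex and age. The study names no treatment of them. Brain, adrenal gland, heart, kidney, liver, lung, skeletal muscle, spleen and thymus were collected from both sexes, testis from males and uterus from females only, which gave 320 libraries, each made from ground organ tissue. The study had removed 2 of them, male brain replicate 3 of week 6 and female spleen replicate 4 of week 104, and they were left out here as well. Totals per library were 315550 to 10571766 counts with a median of 2848160, and counts per 1000000 (CPM) were taken from these totals. In bulk organs, fewer cells of a type and less RNA per cell cannot be told apart.

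miRNAs are short RNAs that guide Argonaute proteins to messenger RNAs, mainly through their seed, the bases near the 5′ end. A hairpin precursor is cut into a duplex, of which usually the guide strand is kept and the other, the passenger strand, is degraded. miR-7 is an ancient miRNA, known in neurons and in endocrine cells, where it acts on secretion and hormone production, and in brain it is bound by the circular RNA Cdr1as, which carries many miR-7 sites. Rats make it from 3 genes. Both miR-7a genes give the same 5p guide, so that only their 3p arms tell them apart, and the remaining gene gives miR-7b.

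The sequences show which rows can be separated and which cannot. They are those that RefSeq lists on GRCr8, and they are the same as the sequences deposited with the counts. All 4 mature miRNAs were matched, and capitals mark the seed, bases 2 to 8 from the 5′ end.
miR-7a-5p: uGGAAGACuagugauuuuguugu
miR-7b: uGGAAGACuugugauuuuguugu
miR-7a-1-3p: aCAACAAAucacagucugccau
miR-7a-2-3p: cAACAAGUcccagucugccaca
The 5p miRNAs share the seed GGAAGAC, and they are the only 2 of the 616 rows that hold it. Counted from the 5′ end of miR-7a-5p, 1 substitution, A10U, leads to miR-7b. Since the study's alignment allowed fewer than 2 mismatches, the way in which reads one base away from either miRNA were divided between both rows is a limit of every miR-7b value here. The 3p arms differ at 3 of the 21 bases that can be aligned (A8G, A11C and U22C, at positions of miR-7a-1-3p), and are therefore the better separated pair.

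The hairpins place these products in the genome. Capitals mark the mature miRNAs that the table lists.
mir-7a-1: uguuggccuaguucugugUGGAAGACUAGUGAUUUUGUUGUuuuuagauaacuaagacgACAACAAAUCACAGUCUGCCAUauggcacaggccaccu
mir-7a-2: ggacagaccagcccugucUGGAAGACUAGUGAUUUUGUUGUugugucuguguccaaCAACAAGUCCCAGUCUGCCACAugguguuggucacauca
mir-7b: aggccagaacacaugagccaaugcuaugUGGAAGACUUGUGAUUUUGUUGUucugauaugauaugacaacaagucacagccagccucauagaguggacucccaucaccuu
On GRCr8, mir-7a-1 lies on the plus strand of chr17:6278692-6278788, inside the protein-coding gene Hnrnpk, which encodes an RNA-binding protein. The mir-7a-2 hairpin lies on the plus strand of chr1:142215800-142215894, inside the long non-coding RNA gene LOC120099863, with Aen as the nearest coding gene. The mir-7b hairpin lies on the plus strand of chr9:1167436-1167545, where the annotation has the pseudogene Rpl35l3, next to Fem1a. Exons and introns were not resolved in the gene table used. No 3p arm of mir-7b is among the 616 rows.

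miR-7a-5p was a brain and adrenal miRNA with a lower level everywhere else, whereas miR-7b was concentrated in brain. Mean miR-7a-5p was 476 ± 433 CPM in brain (SD, n = 31) and 347 ± 106 CPM in adrenal gland (SD, n = 32). Mean miR-7b was 91.8 ± 81.5 CPM in brain and 10.01 ± 2.97 CPM in adrenal gland in the same libraries. More than 3 counts, the floor used here, were found in 317 libraries for miR-7a-5p but in only 70 for miR-7b. Neither miRNA was abundant, as miR-7a-5p held rank 124 of 616 by mean CPM in brain and rank 78 in adrenal gland, while miR-7b held ranks 222 and 313.

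The organs fell into 3 ranges for miR-7a-5p. In brain the lowest, median and highest libraries had 177, 380 and 2654 CPM, and in adrenal gland they had 200.3, 316 and 647 CPM, so that both organs overlapped. The highest brain value belonged to 1 library, described below, without which the brain mean was 403 ± 159 CPM (SD, n = 30). Thymus, testis and spleen made the middle range.
Thymus had a mean of 111 ± 29.1 CPM (49.5 to 160.0 CPM, SD, n = 32) and spleen 86.2 ± 25.8 CPM (44.5 to 153 CPM, SD, n = 31), and neither overlapped with adrenal gland. Testis had a mean of 114 ± 102 CPM (SD, n = 16), and its libraries spanned 4.51 to 299.6 CPM because its level depended on age. The lowest range held liver with a mean of 21.3, lung with 19.3, heart with 14.2, skeletal muscle with 12.4, kidney with 11.4 and uterus with 7.62 CPM, and in these 6 organs no library exceeded 46.0 CPM.

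**Figure D1:**
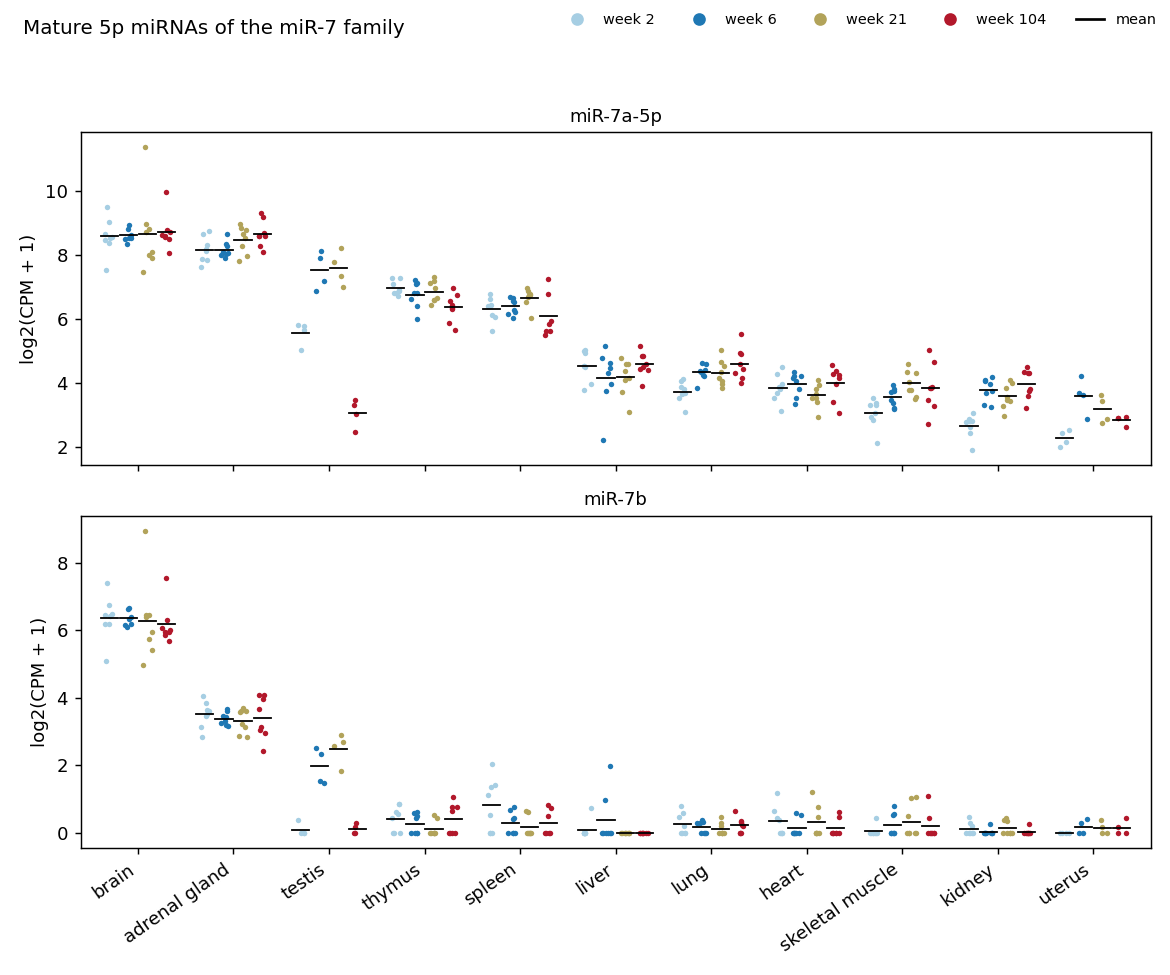
Each point is 1 library, plotted as log2(CPM + 1) of miR-7a-5p (upper panel) or miR-7b (lower panel) by organ, coloured by age, with a line at the mean of each organ and age. miR-7a-5p is highest in brain and adrenal gland and is counted in every organ, and miR-7b stands clear of the floor in brain and adrenal gland, while 4 of the 16 testis libraries had more than 3 counts of it.

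Organs were compared by the quasi-likelihood test of edgeR, with TMM scaling (trimmed mean of M-values) of the counts and the ages weighted equally. Of the 55 pairs of organs, miR-7a-5p differed in 46, miR-7a-1-3p in 45, miR-7a-2-3p in 36 and miR-7b in 25. The background was 73.7% over all pairs of all miRNAs, and the median miRNA differed in 44 pairs, so the first pair of members was close to the typical miRNA and the other members were below it. For miR-7a-2-3p the count was 22 without replicate 1 of every group. Some of these pairs lay between organs at the floor, which for miR-7a-2-3p were 9 of the 36 (among 8 organs without a library above 3 counts), and for miR-7b 6 of the 25 (among 9 organs with a mean of at most 3 counts). Called at all 4 ages in the same direction were 31, 25, 16 and 19 pairs in the same order of members, against a background of 36.2%.

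Whether brain or adrenal gland had more miR-7a-5p depended on the scaling. With TMM, adrenal gland was higher than brain by a log2 fold change of 0.93 ± 0.13 (SE, adjusted p = 4.36e-12, edgeR), and with library size alone it was lower, at -0.44 ± 0.12 (SE, adjusted p = 0.000336, edgeR). TMM multiplied the brain library sizes by 2.09 (geometric mean) and those of adrenal gland by 0.846, and between both scales the median difference of all 616 miRNAs between these organs moved from 0.0093 to -1.15. Relative to that median, miR-7a-5p was higher in adrenal gland. The scaling moves miR-7a-5p and the median together, so both scales give this as 1 result and do not settle the direction. DESeq2 gave 0.42, and leaving out replicate 3 or 1 of every group gave 0.35 or 0.45 with TMM. Within the 8 sequencing lanes, the difference of log2(CPM + 1) ran from -1.03 to 0.16 and had the sign of the pooled value, -0.28, in 5 of them.

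Below these organs the order was partly resolved. Adrenal gland exceeded testis by 2.78 ± 0.18 on the log2 scale (SE, adjusted p = 2.97e-39, edgeR). Thymus exceeded spleen by 1.02 ± 0.13 (SE, adjusted p = 3.59e-13, edgeR), and spleen exceeded liver by 1.55 ± 0.14 (SE, adjusted p = 5.08e-23, edgeR), and all these steps were called with library size alone as well. Testis was lower than thymus by 1.03 ± 0.16 in the comparison that weighs the ages equally on the log scale (SE, adjusted p = 2.49e-09, edgeR), although its mean CPM was slightly higher. From liver downwards, no step between neighbours passed the test under both scalings, and heart and skeletal muscle changed order between them (-0.51 with TMM, 0.23 with library size). The study's rule for an organ-enriched miRNA asks for at least 4-fold over every other organ at every age, and an adjusted p under 0.05 (edgeR) was asked for here as well. With TMM it was met by 98 miRNAs (15.9%), of them 49 in brain (7.95%), and by no member of the family. With library size alone miR-7b of brain met it, in 40 of 40 comparisons, and the other members did not. The remaining miRNAs were not taken through the rule on that scale.

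For miR-7b brain came first and adrenal gland second, with the other organs at or near the floor in most libraries. Libraries ranged from 30.3 to 495 CPM in brain with a median of 72.2, and from 4.40 to 16.0 CPM in adrenal gland with a median of 10.1, so that these groups did not overlap. Brain exceeded adrenal gland by 1.82 ± 0.14 on the log2 scale (SE, adjusted p = 2.42e-30, edgeR) and by 3.17 ± 0.15 with library size alone. Across this contrast 82.3% of all miRNAs were called. By age the difference was smallest at week 104, where brain had a mean of 78.1 CPM and adrenal gland 10.5 CPM. It was 1.53 ± 0.30 with TMM (SE), below the 4-fold of the enrichment rule, and 2.87 ± 0.34 with library size alone (SE), above it, so the scaling decided this call. With TMM adrenal gland was the only organ that kept miR-7b of brain from meeting the rule.
Adrenal gland exceeded testis by 4.21 ± 0.30 (SE, adjusted p = 1.24e-32, edgeR). Testis and spleen, the next organ by mean CPM, were 1.29 ± 0.77 apart (SE, adjusted p = 0.119, edgeR), which was not called, and 4 of the 16 testis libraries had more than 3 counts. In kidney, liver, lung, skeletal muscle, thymus and uterus no library had more than 3 counts of miR-7b, in heart 1 library did and in spleen 2. Mean miR-7b of brain at week 2 was 149.9 times the CPM that 3 counts per library would give in kidney, 139 times in lung and 36.8 times in liver, where the libraries were shallowest. Organs at the floor cannot be ranked for miR-7b at this depth.

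The 3p arms tell the 2 genes of miR-7a apart, and these arms were distributed differently. Since a passenger strand is usually degraded, the level of an arm need not follow the output of its gene, which was not measured. The arm of mir-7a-1 was counted in every organ, with 51.7 ± 8.58 CPM in brain (SD, n = 31), 37.2 ± 10.04 in spleen (SD, n = 31), 25.9 ± 6.84 in thymus (SD, n = 32) and 18.2 ± 9.04 in testis (SD, n = 16). Liver had 15.4 CPM, skeletal muscle 11.0, lung 9.41, heart 7.29 and kidney 6.38. Adrenal gland, with 4.57 ± 1.72 CPM (SD, n = 32), and uterus, with 4.42 ± 1.12 CPM (SD, n = 16), were lowest.
With TMM all 10 other organs exceeded adrenal gland in miR-7a-1-3p, by 0.38 on the log2 scale for heart to 2.43 for thymus (edgeR), while with library size alone the step to uterus was 0.03 and was not called. Brain, spleen and thymus changed order with the scaling. The brain to spleen difference was -0.08 with TMM (adjusted p = 0.426, edgeR) and 0.48 with library size (adjusted p = 3.4e-06, edgeR).

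The arm of mir-7a-2 had libraries with more than 3 counts in 3 organs only. It had 33.9 ± 10.01 CPM in brain (SD, n = 31), with a range of 18.5 to 55.5, and 10.8 ± 4.17 CPM in adrenal gland (SD, n = 32), with a range of 0.419 to 20.2. In testis the mean was 6.12 ± 7.501 CPM (SD, n = 16), with 5 libraries at 0. Brain exceeded adrenal gland by 0.41 ± 0.11 on the log2 scale (SE, adjusted p = 0.000327, edgeR), and by 1.68 ± 0.12 with library size alone.
The values without single replicate numbers were 0.50 to 0.88, all above the main value. The excess of brain was 0.94 with DESeq2, 0.85 with all 320 samples and 0.82 without replicate 2 of the female brain samples at week 21. With lane as a covariate it was 0.39 and with a replicate block 0.41. The main value thus lay at the low end, and its SE does not cover this spread. In the other 8 organs no library had more than 3 counts of miR-7a-2-3p. It was not absent from all of them, as skeletal muscle at week 2 had 10 of 113 counts of both 3p arms (8.85%). In liver 0 of 508 counts of both 3p arms were of this arm, which allows a share of up to 0.591% (3 counts of that total, for counting error only).

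**Figure D2:**
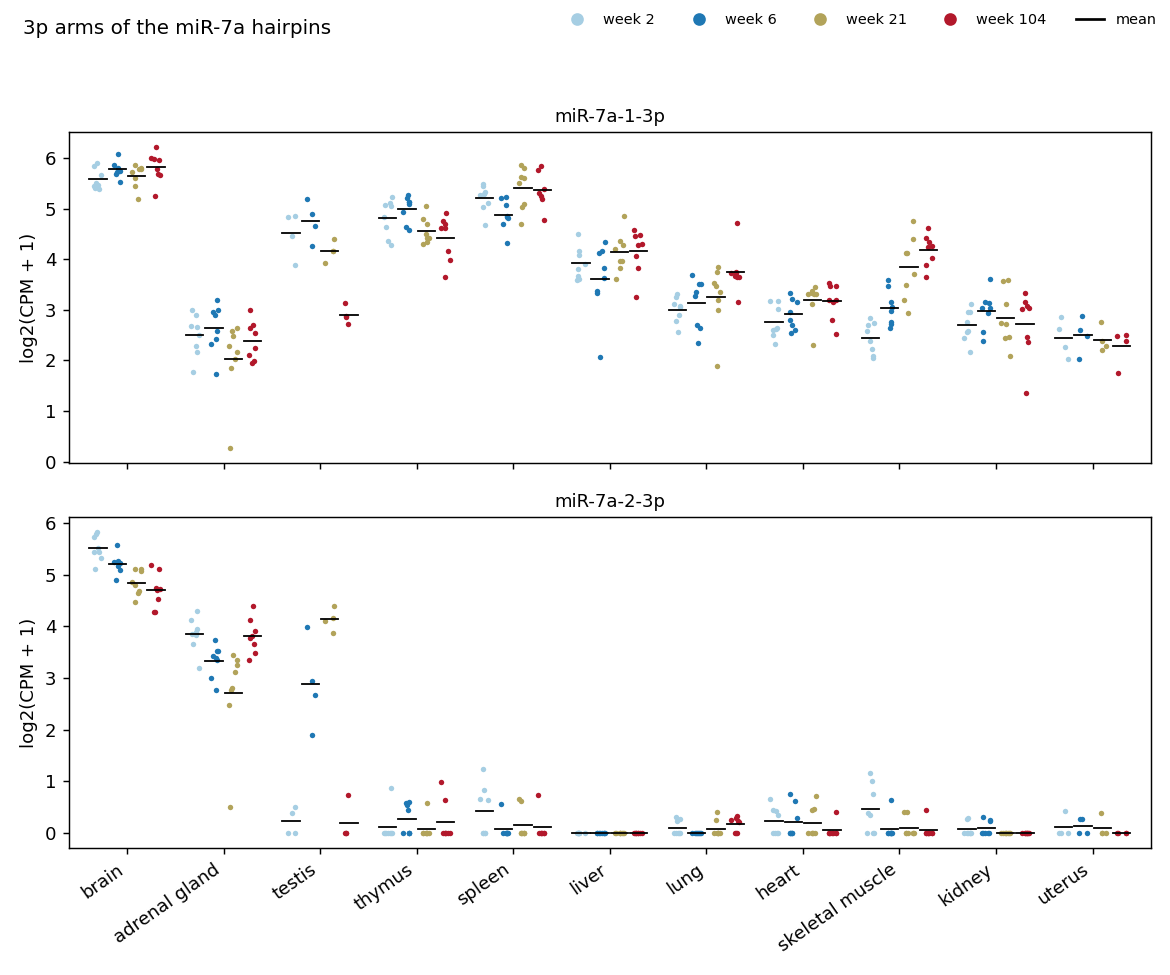
Each point is 1 library, plotted as log2(CPM + 1) of miR-7a-1-3p (upper panel) or miR-7a-2-3p (lower panel) by organ, coloured by age, with a line at the mean of each organ and age. The arm of mir-7a-1 is counted in all organs and is low in adrenal gland, and the arm of mir-7a-2 leaves the floor in brain, adrenal gland and the testis of weeks 6 and 21.

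Where both rows are well counted, ratios within a library do not depend on its depth or scaling. Each ratio differed between brain and adrenal gland. miR-7b made up 16.2% of the 5p counts of brain (9185 of 56798 counts, 95% Wilson interval 15.9 to 16.5%), with single libraries between 13.2 and 18.9%. In adrenal gland it made up 2.80% (1283 of 45897, 2.65 to 2.95%), with libraries between 1.18 and 4.54%, so that no library of one organ reached those of the other. In thymus, which had over 100 CPM of miR-7a-5p, the share was 0.258% (20 of 7762 counts, 0.167 to 0.398%). The log2 ratio of miR-7b to miR-7a-5p, with 0.5 added to each count, was -2.38 ± 0.17 in brain and -5.10 ± 0.44 in adrenal gland (SD). Their difference of -2.72 had the smallest p that 100000 permutations can give, 1e-05 (adjusted p = 2.29e-05, two-sided permutation test, 55 pairs), and it was negative in 8 of 8 lanes, from -3.09 to -2.40.
Of the 55 pairs of organs, 40 differed in this ratio, and 34 to 37 did without single replicate numbers. Most of the lower ratios rest on a few miR-7b counts or none, and there they move with the miR-7a-5p count, so the order of organs below adrenal gland is not one of measured miR-7b.

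The arm of mir-7a-2 held 70.1% of the 3p counts in adrenal gland (1309 of 1868, 68.0 to 72.1%) and 39.1% in brain (3243 of 8289, 38.1 to 40.2%). In spleen it held 0.51% (11 of 2158, 0.285 to 0.91%) and in thymus 0.558% (10 of 1791, 0.304 to 1.02%). Adrenal gland was thus the only organ with more of the mir-7a-2 arm than of the mir-7a-1 arm. The log2 ratio of miR-7a-1-3p to miR-7a-2-3p was -1.20 ± 0.57 in adrenal gland (SD, n = 31) and 0.65 ± 0.48 in brain (SD, n = 31), among libraries with at least 10 counts on both arms together. The difference of -1.85 again gave the smallest p possible, 1e-05 (adjusted p = 2.12e-05, permutation test), and was negative in 8 of 8 lanes. Among the remaining organs, testis had 3.48 ± 2.91 (SD, n = 16), and the means of the others lay between 4.82 in heart and 6.56 in spleen. In all, 46 of the 55 pairs differed, and 38 to 44 did without single replicate numbers. Of the 55 pairs, 28 lay between the 8 organs in which no library had more than 3 counts of miR-7a-2-3p. There the ratio moves with the miR-7a-1-3p count, so the order of these organs is not one of measured arm balance.

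**Figure D3:**
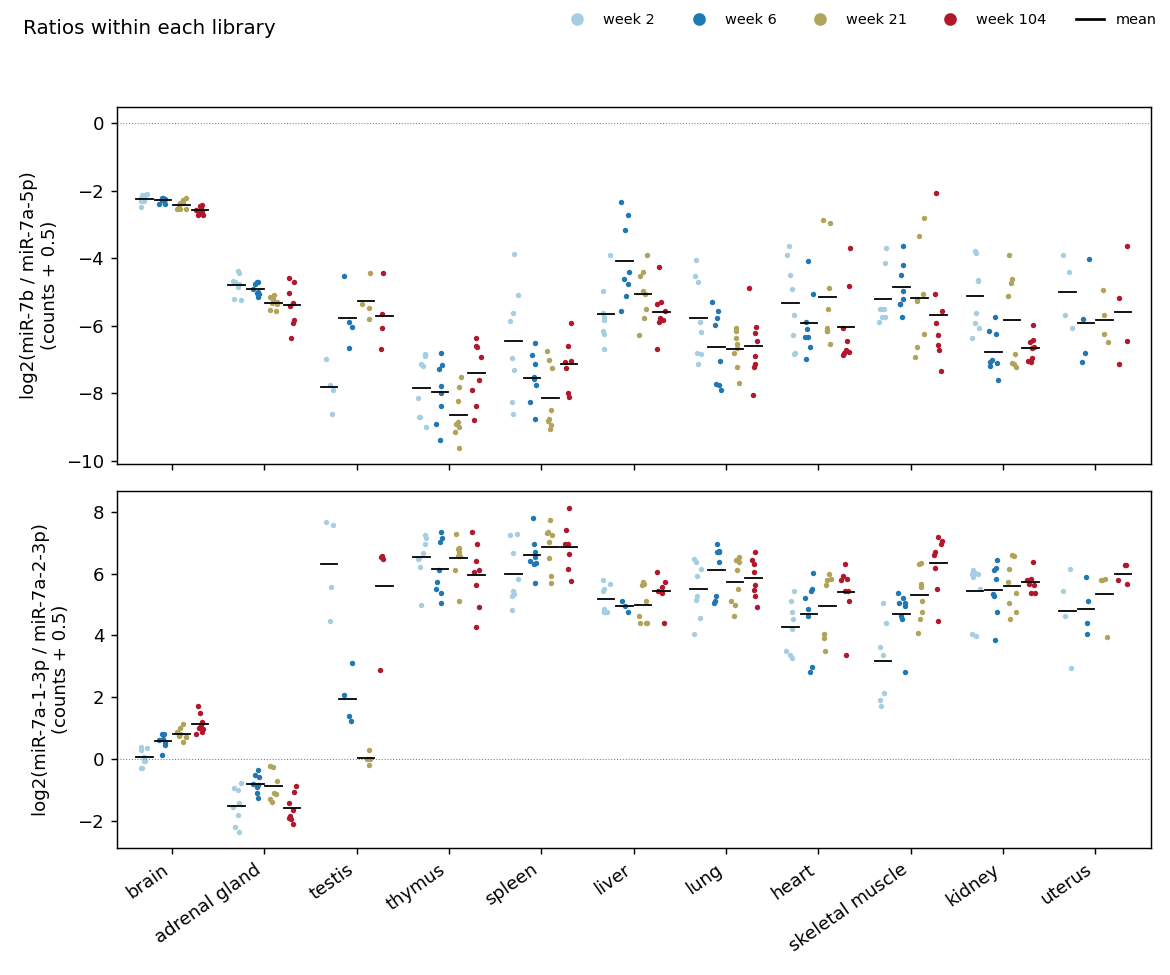
Each point is 1 library, plotted as the log2 ratio of miR-7b to miR-7a-5p (upper panel) or of miR-7a-1-3p to miR-7a-2-3p (lower panel), with 0.5 added to each count, by organ and coloured by age. Brain has the highest mean in the upper panel, -2.38, where single libraries of few counts in skeletal muscle (up to -2.07) and liver (up to -2.32) reach its range, and in the lower panel adrenal gland lies below 0, while brain and the testis of week 21 lie near or above it.

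The guide to passenger balance also differed between organs, a comparison added after the data had been seen. The log2 ratio of miR-7a-5p to both 3p arms together was 4.58 ± 1.08 in adrenal gland (SD, n = 32), 2.25 ± 0.70 in brain (SD, n = 31) and 2.07 ± 0.46 in thymus (SD, n = 32). It was lowest in skeletal muscle at 0.23 ± 0.83 and in liver at 0.43 ± 0.75 (SD, n = 32 each), where the 3p arms were nearly as frequent as the 5p guide. Adrenal gland differed from brain by 2.33 (p = 1e-05, the smallest possible, adjusted p = 2.2e-05, permutation test), in the same direction in 8 of 8 lanes, and brain and thymus differed by 0.18 (adjusted p = 0.27, permutation test). Of the 55 pairs, 39 differed. The adrenal mean includes 1 unusual library, replicate 1 of the male samples at week 21, which had 2425 counts of miR-7a-5p and 52 of miR-7b but only 1 and 2 counts of the 3p arms, giving the highest ratio of all adrenal libraries, 9.44, against an organ median of 4.53.

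Brain libraries differed among themselves more in the 5p miRNAs than in the 3p arms. The coefficient of variation over 31 brain libraries was 91.1% for miR-7a-5p and 88.8% for miR-7b, but 16.6% for miR-7a-1-3p and 29.6% for miR-7a-2-3p. Replicate 2 of the female samples at week 21 had 2654 CPM of miR-7a-5p and 495 CPM of miR-7b, the highest of all brain libraries, with 56.8 and 33.6 CPM of the 3p arms. Without it the coefficients of the 5p miRNAs were 39.4% and 41.7%. In this library miR-7a-5p and miR-7b stood 3.12 and 3.08 above the other 3 replicates of the group on the log2 scale, at ranks 5 and 6 of 455 miRNAs, while the 3p arms stood 0.27 and 0.31 above. Its ratio of miR-7b to miR-7a-5p, -2.42, lay within the range of the other brain libraries.
Other miRNAs stood apart in the same library, with miR-3068-5p leading at 3.79. miR-122-5p, a liver miRNA, had 143 CPM there against 16.9 in the other replicates (rank 4), and the muscle miRNAs miR-206-3p (45.3 against 6.61 CPM) and miR-1b (142 against 24.7 CPM) held ranks 8 and 10. miR-200a-3p, an epithelial miRNA also found in pituitary, had 13329 CPM against 3067 and held rank 13. Among those not named for a tissue, miR-494-3p, miR-139-3p and miR-377-3p held ranks 2, 3 and 7. The summed level of 9 endocrine and pituitary miRNAs ranked 2 of 31 there, that of 8 neuronal miRNAs ranked 17, and miR-124-3p ranked 8. In replicates 1, 3 and 4 of the same group the endocrine list ranked 4, 9 and 1. There miR-7a-5p ranked 29, 8 and 28. The part of all these miRNAs in the miR-7 level was not tested. Replicate 4 of the female samples at week 104 came next, with 1018 CPM of miR-7a-5p and 187 CPM of miR-7b, and there the endocrine list ranked 22. The study notes that an unusually small share of the reads of this library were miRNA, whose part in its level was not tested. Both high libraries were sequenced in lane 5. The other brain libraries of that lane were male replicate 1 of week 21 and male replicate 4 of week 104. They ranked 5 and 15 of 31 for miR-7a-5p, and the part of the lane was not tested.

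**Figure D4:**
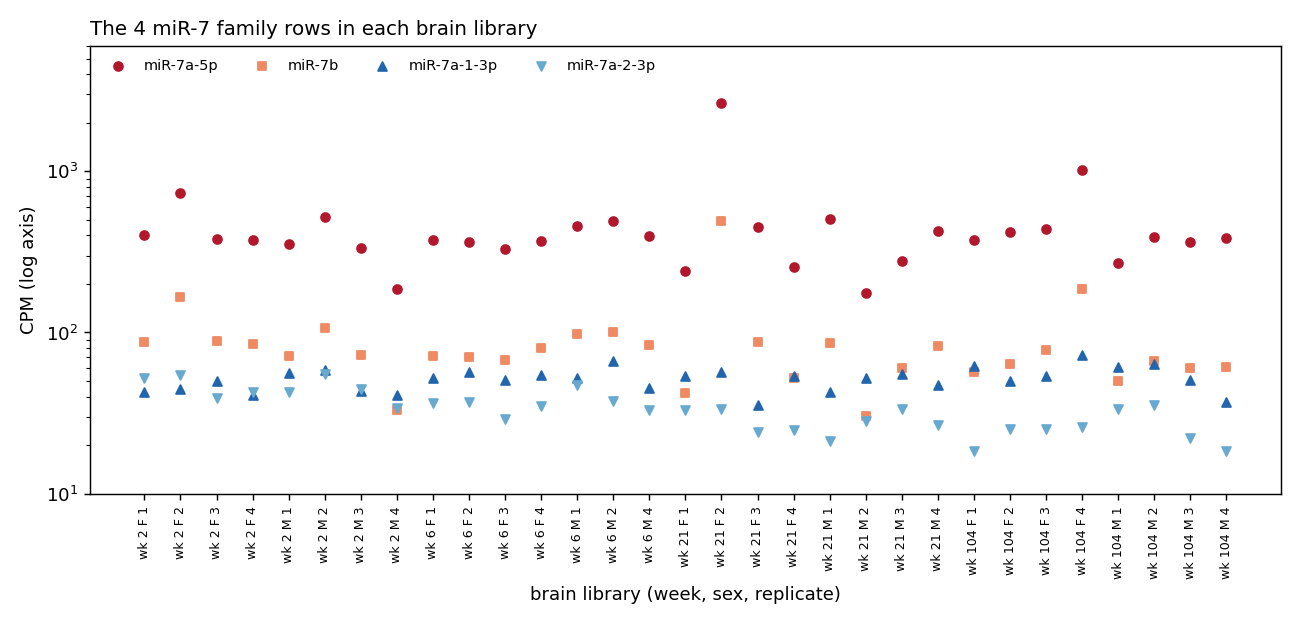
The CPM of the 4 family members is plotted on a log axis for each of 31 brain libraries, ordered by week, sex and replicate. Replicate 2 of the females at week 21 and replicate 4 of the females at week 104 are high in both 5p miRNAs, whose distance from each other stays alike across libraries, and not in the 3p arms.

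With age, miR-7a-5p rose in muscle, kidney, lung, heart, uterus and adrenal gland and fell in thymus and testis. Between week 2 and week 104 it differed in 8 of 11 organs with TMM (edgeR, adjusted p under 0.05), 6 higher and 2 lower, against a background of 49.9% over all organs and miRNAs (21.8% higher and 28.1% lower). With library size alone 6 organs were called, since heart and uterus lost the call. With TMM skeletal muscle had the largest rise, 1.93 ± 0.26 on the log2 scale (SE, adjusted p = 6.47e-08, edgeR), or 0.98 with library size, as its mean went from 7.70 ± 2.29 CPM at week 2 to 15.2 ± 8.68 CPM at week 104 (SD, n = 8 each). In muscle 59.7% of all miRNAs were called. In kidney the libraries lay between 2.81 and 7.45 CPM at week 2 and between 8.47 and 21.6 CPM at week 104 and did not overlap. The rise there was 1.66 ± 0.24 with TMM (SE, adjusted p = 4.67e-07, edgeR) and 1.46 with library size.
Lung rose by 1.18 ± 0.21 (SE, adjusted p = 1.34e-05, edgeR), from 12.7 ± 2.91 to 25.0 ± 10.06 CPM (SD, n = 8 each). The values for adrenal gland, heart and uterus were 0.88, 0.76 and 1.57 with TMM and 0.50, 0.20 and 0.63 with library size. Thymus, which shrinks with age, fell by 0.89 ± 0.19 (SE, adjusted p = 0.000104, edgeR), from 127 ± 19.8 to 85.2 ± 24.6 CPM (SD, n = 8 each). In brain, liver and spleen no difference was called (0.53 ± 0.34, 0.32 ± 0.27 and 0.23 ± 0.23, SE). The adrenal call was lost without replicate 4 of every group (0.59, adjusted p = 0.108, edgeR) and with lane as a covariate (0.54, adjusted p = 0.0969, edgeR), and the heart call without replicate 1 or 2. Within the lanes that held both ages, the sign was the same in 4 of 4 for kidney, 4 of 4 for lung, 3 of 3 for skeletal muscle and 5 of 5 for thymus.

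The change was also taken in steps. Between weeks 2 and 6, miR-7a-5p was higher in 6 of 11 organs (heart, kidney, lung, skeletal muscle, testis and uterus), by up to 2.10 in testis and 2.08 in uterus on the log2 scale. The background of this step was 36.0%, and 15.4% counted upwards only. Between weeks 6 and 21 it was higher in 2, adrenal gland and skeletal muscle (background 16.3%, upwards only 7.39%), and between weeks 21 and 104 it was lower in 2, testis and thymus (background 16.0%, downwards only 8.66%). With library size alone, heart and skeletal muscle were not called in the first step nor either organ in the second. The adrenal rise between weeks 6 and 21, 0.74 on the log2 scale, also missed the threshold with lane as a covariate, without any single replicate number (0.53 to 0.84) and with a replicate block (adjusted p = 0.0514, edgeR). The change from week 2 to 104 differed from that of brain in 4 of 10 organs for miR-7a-5p (background 36.5%), namely kidney, skeletal muscle, testis and thymus, and in 2 of 10 without replicate 1 of every group. For miR-7b it differed in 0 of 10.

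**Figure D5:**
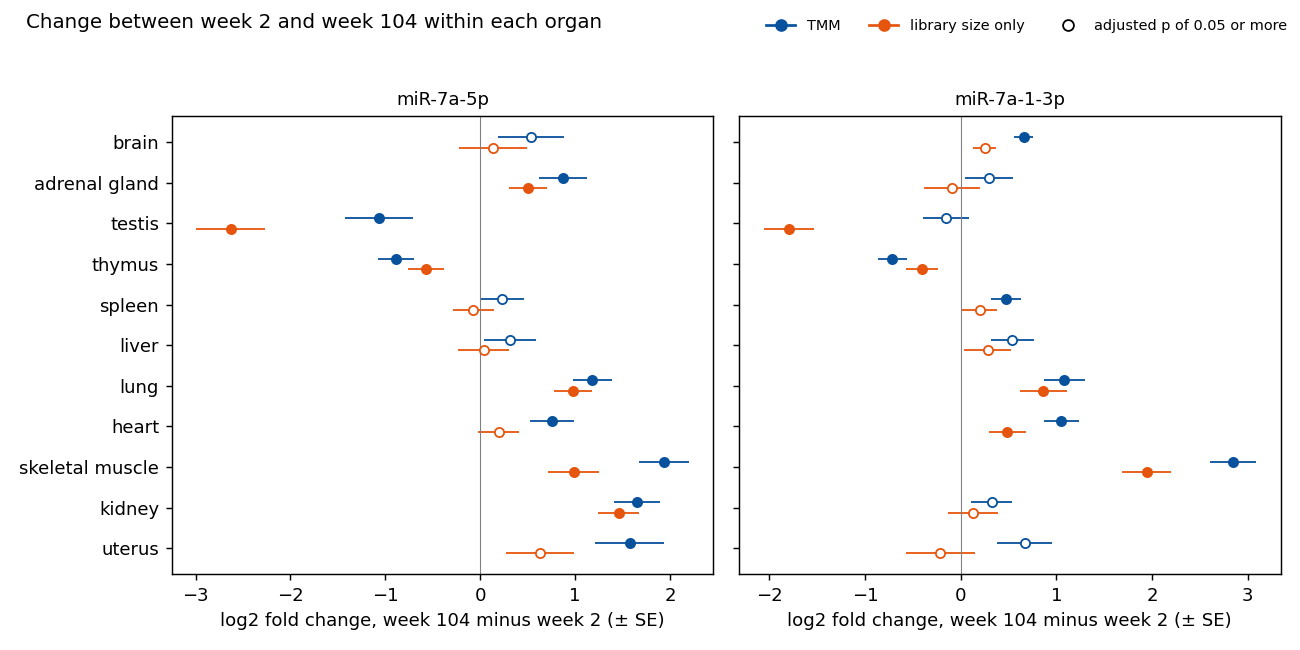
Log2 fold changes from week 2 to week 104 of miR-7a-5p (left) and miR-7a-1-3p (right) are plotted for each organ, with TMM in blue and library size alone in orange, bars at ± 1 SE, and open points where the adjusted p was 0.05 or more. Skeletal muscle has the largest rise of both miRNAs with TMM, kidney that of miR-7a-5p with library size, thymus falls in both, and testis shows the widest gap between the scales.

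Testis had the widest course with age. At week 2 the 4 libraries had 32.2, 49.9, 56.0 and 54.1 CPM of miR-7a-5p. At week 6 they had 119, 146, 281 and 241 CPM, at week 21 they had 129, 163, 299.6 and 219 CPM, and at week 104 they had 7.17, 9.05, 4.51 and 10.2 CPM. The young adult libraries were all above those of week 2, and those of week 104 were all below. The rise between weeks 2 and 6 was 2.10 ± 0.36 on the log2 scale (SE, adjusted p = 0.00016, edgeR), and the difference between weeks 21 and 104 was -3.46 ± 0.38 (SE, adjusted p = 6.11e-07, edgeR) with TMM and -4.70 with library size. In these contrasts of testis 45.3% and 50.6% of all miRNAs were called. The lanes held both ages in 1 case for the rise, 2.87, and in 2 for the later difference, -5.54 and -4.32 in log2(CPM + 1).
The week 104 minus week 2 difference was -1.07 ± 0.36 with TMM (SE, adjusted p = 0.0175, edgeR) and -2.63 with library size, and it missed the threshold with DESeq2 (-0.78, adjusted p = 0.077). With lane as a covariate it was -0.40 (adjusted p = 0.338, edgeR), and without replicate 2 or 3 it was -0.97 or -0.95, both above the threshold. The median of all miRNAs in this contrast was -0.55, and 55.2% were called.

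The other members followed in testis, except miR-7a-1-3p. miR-7a-2-3p had 0.298, 0.419, 0 and 0 CPM at week 2, 14.9, 5.38, 2.72 and 6.69 at week 6, 20.1, 16.8, 13.7 and 16.3 at week 21, and 0.672, 0, 0 and 0 at week 104. No library of weeks 2 or 104 had more than 3 counts of it, so the fitted differences, 5.11 between weeks 2 and 6 and -5.54 between weeks 21 and 104 (edgeR, adjusted p = 4.71e-05 and 1.14e-06), depend on the prior count of the fit. From the summed counts and totals, week 6 was 49.9 times week 2 (31 against 2 counts, exact 95% interval 12.7 to 430.0) and week 21 was 137 times week 104 (82 against 3 counts, 45.3 to 679), for counting error only. miR-7b went from 1 count in the 4 libraries of week 2 to 12 at week 6, 24 at week 21 and 2 at week 104. The differences were called in both steps (edgeR, adjusted p = 0.000221 and 2.35e-05). With lane as a covariate the week 6 calls of miR-7b and miR-7a-2-3p had adjusted p of 0.0601 and 0.0775 (edgeR).
miR-7a-1-3p had means of 22.6, 26.6, 17.0 and 6.52 CPM at the 4 ages (n = 4 each), and its week 104 minus week 2 difference was -0.15 with TMM (adjusted p = 0.632, edgeR) and -1.79 with library size (adjusted p = 9.63e-06, edgeR). As a result the share of the mir-7a-2 arm in testis was 0.664% at week 2 (2 of 301 counts), 22.8% at week 6 (31 of 136), 49.7% at week 21 (82 of 165) and 1.82% at week 104 (3 of 165). The ratio of both arms did not overlap between weeks 2 and 21 (6.32 against 0.025). This gave p = 0.0286 in an exact permutation test, the smallest p that 4 against 4 allows, and 0.0571 after adjustment over 12 comparisons of ratios with age that were added after the data had been seen.

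The testis of week 104 differed in more than the miR-7 family. The summed level of 8 X-linked miRNAs of germ cells was 11653 CPM at week 2, 66489 at week 6, 53307 at week 21 and 1177 at week 104 (146 to 2344 CPM over 4 libraries), and with TMM all 8 were lower at week 104 than at week 21 (median -4.13 on the log2 scale, edgeR). The 3 red cell miRNAs together went from 16394 CPM at week 21 to 1202 at week 104, but singly 1 was higher, 1 lower and 1 not called with TMM (median 0.55). Library totals were 4464215 to 7383298 counts at week 104 and 734282 to 1413760 at weeks 6 and 21. The study notes that piRNA, another class of small RNA, dominated the testis libraries of weeks 6 and 21. CPM is a share of the miRNA counts only, and the part of this change in the testis levels was not tested. The miR-375-3p of testis, an endocrine miRNA also found in testis, moved with miR-7a-5p, by 5.07 between weeks 2 and 6 and -5.08 between weeks 21 and 104 on the log2 scale (edgeR, adjusted p = 9.52e-10 and 9.49e-10). Of the 9 endocrine and pituitary miRNAs, 1 was higher and 5 were lower at week 6 than at week 2 (median -1.26), and 0 were higher and 2 lower at week 104 than at week 21 (median -0.91). The part of cell composition in these differences was not tested.

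In brain the levels of the 5p miRNAs were not called different between ages, but the ratio of the 5p miRNAs and that of the 3p arms both shifted. Of all miRNAs, 54.7% were called in brain between weeks 2 and 104. miR-7b made up 17.9, 17.0, 15.8 and 14.5% of the 5p counts at weeks 2, 6, 21 and 104. The log2 ratio of miR-7b to miR-7a-5p was 0.34 lower at week 104 than at week 2 (-2.58 ± 0.11 against -2.23 ± 0.12, SD, n = 8 each, p = 0.000466, adjusted p = 0.0028, exact permutation test), and the groups overlapped. In the 5 lanes that held both ages the difference was -0.50 to -0.25. In adrenal gland the same ratio was -0.62 apart (p = 0.0242, adjusted p = 0.0571, exact permutation test).
The mir-7a-2 arm held 49.6, 40.3, 35.8 and 32.3% of the 3p counts of brain at the 4 ages. The log2 ratio of miR-7a-1-3p to miR-7a-2-3p rose from 0.055 ± 0.27 to 1.15 ± 0.31 (SD, n = 8 each) without overlap (p = 0.000155, adjusted p = 0.00186, exact permutation test), by 0.95 to 1.44 in 5 of 5 lanes. It came from both sides, as mean miR-7a-2-3p went from 45.6 ± 7.74 to 25.6 ± 6.30 CPM and mean miR-7a-1-3p from 47.2 ± 6.92 to 56.3 ± 10.8 CPM (SD, n = 8 each). The fall of miR-7a-2-3p was 0.42 ± 0.12 with TMM (SE, adjusted p = 0.00423, edgeR) and 0.84 with library size. The rise of miR-7a-1-3p was 0.66 ± 0.10 with TMM (SE, adjusted p = 2.95e-06, edgeR) and 0.25 with library size, where it was not called. In the same libraries the 8 neuronal miRNAs together went from 122225 to 82538 CPM and 3 glial miRNAs from 2244 to 6682 CPM. With TMM 3 of the 8 neuronal miRNAs were higher and 3 lower at week 104 than at week 2 (median 0.08), among them miR-124-3p, higher by 1.12 (adjusted p = 1.32e-09, edgeR), and all 3 glial miRNAs were higher (median 1.03). Their part in the ratios was not tested.

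miR-7a-1-3p rose with age in skeletal muscle, lung, heart, brain and spleen and fell in thymus. Between weeks 2 and 104 it differed in 6 of 11 organs (5 higher and 1 lower), against the same background of 49.9%. The largest rise was again in skeletal muscle, at 2.85 ± 0.24 on the log2 scale (SE, adjusted p = 9.15e-13, edgeR) and 1.94 with library size, from 4.57 ± 1.18 to 17.5 ± 3.82 CPM (SD, n = 8 each), with 3.11 to 6.18 CPM at week 2 and 11.6 to 23.5 CPM at week 104 and no overlap. Lung and heart rose by 1.08 and 1.05, spleen by 0.47, and thymus fell by 0.71. With library size spleen was no longer called and the value was 0.20, and the call was also lost with lane as a covariate and without replicate 1. The study notes low RNA integrity in the spleen samples of week 2, whose part in the spleen values was not tested. miR-7a-2-3p was called in 1 of 11 organs, brain. miR-7b was called in 0 of 11 organs with edgeR, with 0 at an unadjusted p under 0.05 and 0 with DESeq2.

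With all replicates, no member of the family was called different between the sexes over the ages or at single ages. Male minus female over the ages was called in 0 of 9 organs for each of the 4 members with edgeR and with DESeq2, against a background of 1.39%, and at an unadjusted p under 0.05 edgeR had 0 organs for miR-7a-5p, 2 for miR-7b, 1 for miR-7a-1-3p and 0 for miR-7a-2-3p. The differences of miR-7a-5p lay between -0.49 and 0.15 on the log2 scale. At single ages 0 of 36 comparisons were called for each member (background 1.32%), with 1, 2, 2 and 0 at an unadjusted p under 0.05 in the same order and 0 with DESeq2. Without replicate 4 of every group miR-7b was called in 1 of 9 organs.

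The pattern of the members over the 44 means of organ and age was compared with that of all miRNAs, as a description, since these means share libraries and the brain dominates them. Most like miR-7a-5p in Pearson's r of log2(mean CPM + 1) were miR-7a-2-3p (0.81), miR-7b (0.79), miR-128-3p (0.77), miR-138-5p (0.77) and miR-153-3p (0.76), the last 3 being miRNAs of neurons. Most like miR-7b were miR-7a-2-3p (0.96), miR-344a-3p (0.96), miR-137-3p (0.95), miR-325-5p (0.95) and miR-384-5p (0.95). The arm of mir-7a-1 was less alike, with 0.57 to miR-7a-5p and 0.39 to miR-7b. With Spearman's rho only 1 of the 5 was shared with the Pearson list for each of both members.

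Labels were checked against organ markers. The study's sample table exchanges the names of the raw libraries of brain and skeletal muscle for replicate 2 of the females at week 6, and the library labelled brain had 11454 CPM of miR-124-3p, within the range of brain (5175 to 14913 CPM) and above all muscle libraries (up to 109 CPM), so the labels were kept. miR-124-3p, a neuronal miRNA, had 10829 CPM in brain and 15.4 in adrenal gland, and miR-9a-5p, also of neural cells, had 46044 and 79.2 CPM. The 8 neuronal miRNAs summed to 73036 to 144970 CPM in brain libraries and to 471 to 3743 CPM in adrenal libraries. miR-375-3p, known in endocrine cells, had 5478 ± 1438 CPM in adrenal gland (SD, n = 32) and 165 ± 40.8 in brain (SD, n = 31). Of the 9 endocrine and pituitary miRNAs it was the only one higher in adrenal gland, as the other 8 were lower there than in brain (median of the 9 -4.36, TMM). miR-375-3p did not follow miR-7a-5p over the organs as a whole, with an r of 0.32 over the 44 means. The other endocrine and pituitary miRNAs varied widely in brain, where the list summed to 953 to 97770 CPM. miR-671 is a name known from the cleavage of Cdr1as, but its row names no arm, and whether it counts the product that acts there was not checked. This row had 72.4 ± 14.5 CPM in brain, 21.8 ± 8.64 in testis and 13.9 ± 7.06 in adrenal gland (SD, n = 31, 16 and 32). Its r was 0.48 with miR-7a-5p and 0.57 with miR-7b. The pancreatic miR-216a-5p and miR-217-5p had 11.1 and 17.1 CPM in brain and under 1 CPM in adrenal gland.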

How the data were processed

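Organs of F344 rats were measured by small RNA sequencing (total RNA, TruSeq Small RNA kit, Illumina HiSeq). The authors trimmed reads with fastp 0.23.2, kept lengths of 16 to 35 nt, aligned them with Bowtie 1.3.1 to miRBase and other collections with fewer than 2 mismatches, and deposited the read count of each of 616 miRNAs (604 known) in 320 libraries, without normalization. Their reads had no molecular identifiers, so intervals cover counting error only. Lanes (8 lanes) were taken from the study's sample table.

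Here CPM was computed from column totals. The counts were tested with edgeR 4.0.16 (R 4.3.3; quasi-likelihood, TMM) over all 616 miRNAs, with Benjamini-Hochberg adjustment per contrast and a threshold of 0.05. All samples but the 2 removed ones entered 1 fit for organ pairs and for the difference of age changes from brain, those of 1 age a fit at that age, and those of 1 organ a fit for age and sex. Ratios within a library used 0.5 as pseudocount and 100000 permutations over samples, or exact ones below 10 per group (Python 3.11.15, SciPy 1.17.1). Ratios of both 3p arms needed 10 counts. Scripts were tested on simulated data. Alternatives were library size only, DESeq2 1.42.0, miRNAs with a mean count of 10 or more, all 320 samples, lane as covariate, a replicate block, single libraries or replicates left out, other pseudocounts, and both 5p miRNAs summed. Leaving out replicate 2 of the female brain samples at week 21, the guide to passenger ratio, the ratio tests with age, the counting intervals in testis and the enrichment rule with library size alone were added after seeing the data.

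The members and lists were chosen with earlier results of these data known. Named are all members, the 5 miRNAs most like miR-7a-5p and miR-7b, 6 known miRNAs and those a result turns on, the leading ones in the outlying brain library having been chosen after their values were seen. Marker lists (neuronal, glial, endocrine and pituitary, pancreatic, hepatic, striated muscle, red cell, lymphocyte, testis X-linked) were used for checks. Replicates are separate rats, and 474 pairs of replicates differed by at least 14.9 times the counting error (chi-square per degree of freedom), so none was a duplicate. Sequences and positions are those of RefSeq on GRCr8, while the authors used rn7, whose coordinates are not printed. The mRNA and microarray data were not analysed here.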

Additional observations from a re-analysis of the deposited data

Results flagged for a closer look

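Among 107 groups of 4 to 8 libraries above the floor, 7 had a library set apart from the others by Dixon's test, and chance flags about 1 in 20 groups. In brain at week 21, replicate 2 of the females had 2654 CPM of miR-7a-5p, with the others between 177 and 505, and 495 CPM of miR-7b, with the others between 30.3 and 87.5. In brain at week 104, replicate 4 of the females had 1018 CPM of miR-7a-5p, with the others at up to 441, and 187 CPM of miR-7b, with the others at up to 78.2. miR-7a-5p was low in replicate 4 of uterus at week 104, at 5.26 CPM against 6.56 to 6.67. miR-7a-1-3p was low in replicate 4 of the male hearts at week 21, at 3.93 CPM, with the next library at 7.72, and high in replicate 1 of the female lungs at week 104, at 25.5 CPM, with the next at 12.4.

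The change from week 2 to week 104 differed from that of brain in 8 cases, with 4 members tested in 10 organs each (edgeR interaction contrasts, TMM, log2 scale). The background was 36.5% over all 10 organs of all miRNAs. miR-7a-5p, called in 4 of 10 organs, was close to it. miR-7b and miR-7a-2-3p had no library above 3 counts in 6 and 8 organs, where little could be called. The 8 cases together therefore do not show whether the members were called less often than the typical miRNA. For miR-7a-5p the difference was 1.09 in kidney (adjusted p = 0.016), 1.51 in skeletal muscle (adjusted p = 0.000282), -1.51 in testis (adjusted p = 0.00351) and -1.65 in thymus (adjusted p = 2.38e-05). For miR-7a-1-3p it was 2.30 in skeletal muscle (adjusted p = 2.32e-14), -0.79 in testis (adjusted p = 0.0369) and -1.62 in thymus (adjusted p = 1.05e-08). For miR-7a-2-3p it was 0.90 in adrenal gland (adjusted p = 0.015), a call that was lost with library size alone, without replicate 2, 3 or 4 of every group, and without replicate 4 of the female brain samples at week 104.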

How the results depend on the processing

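The direction of miR-7a-5p between adrenal gland and brain reversed with library size alone, from 0.93 to -0.44 on the log2 scale, and the other alternatives gave 0.35 to 0.99. Without replicate 1 of every group, the organs in which the miR-7a-5p change with age differed from brain were 2 in place of 4 (2 to 4 over the replicates left out), and without replicate 4, miR-7b differed between the sexes in 1 organ in place of 0 (0 to 1); the cause was not tested. Of the main counts and ratios, 167 values under alternatives kept their direction and side of the threshold or stayed within 1.5 times, and of the values of single comparisons 745 did, while 66 lost the call, 4 gained it (among them the enrichment of miR-7b in brain with library size alone) and 8 mean levels moved by more than 1 SD with TMM. With the replicate block the miR-7a-5p pairs were 47 in place of 46 and those of miR-7b 26 in place of 25. Deviations were hardly correlated between organs of the same rat number (mean 0.0103, 24.8% above 0.1) or of other numbers of the same sex and age (mean -0.0033, 21.0% above 0.1). Such weak correlations cannot show whether a number marks 1 rat across organs. The block ended the call of miR-7a-5p in adrenal gland between weeks 6 and 21 (adjusted p = 0.0514, edgeR) and of miR-7a-1-3p in liver between the same weeks (adjusted p = 0.067, edgeR). Outside brain, adrenal gland and testis the depth did not allow miR-7b and miR-7a-2-3p to be ranked.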
